A study of Oryza sativa with 12 samples.

Results

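A set of 96 probes, of 42477 on the rice array (0.226%), was well above background in shoots treated with NaCl and mostly not in untreated shoots. A probe counted as detected on an array when the scanner's software marked at least 50% of its spots as well above background. The 96 members were chosen by these flags alone: each was detected on at least 5 of the 6 arrays with NaCl and on at most 1 of the 6 arrays without it, both genotypes together. The opposite rule, detection on at least 5 arrays without NaCl and at most 1 with it, found 39 probes. Because detection with and without NaCl chose the members, their rise with NaCl is given as a description and supports nothing.

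The study compared shoots of OE rice, which carries *OsERF106MZ* behind the constitutive 35S promoter in the Tainung 67 cultivar, with shoots of Tainung 67 itself (TNG67). The 4 groups were OE with 150 mM NaCl, TNG67 with 150 mM NaCl, OE with 0 mM NaCl and TNG67 with 0 mM NaCl. The NaCl treatment started at 7 days of age and lasted 1 day, and RNA from the aerial parts of each group was hybridized to 3 single-dye Agilent arrays. Which of the study's OE lines was hybridized is missing from the labels, and the level of the overexpressed gene was not analysed here.

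High salt slows water uptake and lets sodium build up in the leaf. Plants answer with the hormone abscisic acid (ABA), whose signalling releases bZIP transcription factors that switch on genes for late embryogenesis abundant proteins, dehydrins and other protective products. Many such genes are nearly silent in an unstressed shoot, so an array can pass from no measurable signal to a clear one. In a whole shoot, more RNA per cell and more cells that express a gene cannot be told apart.

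Hybridization used 3 slides. TNG67 replicates 1 and 3 shared slide 1, OE replicates 1 and 3 shared slide 2, and replicate 2 of all 4 groups shared slide 3, in a scan of its own. In replicates 1 and 3 the slide and the genotype therefore cannot be told apart, while both NaCl levels share a slide. Detection differed between slides: 85.9% to 88.0% of all probes were detected on the 4 arrays of slide 3, against 79.3% to 82.5% on the other 8. The labels call the replicates biological, but the study's own list of values gives replicates 1 and 3 as 1 sample, and the p-values may then measure partly technical spread. The labelled tissue could not be checked, because none of 5 shoot and root marker loci had a probe in the tables used here.

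The members' detection followed the NaCl treatment on every slide, which the rule largely fixes, with an excess on the untreated arrays of slide 3. In OE with NaCl, 88, 94 and 96 members were detected in replicates 1, 2 and 3, and in TNG67 with NaCl 85, 94 and 70. Without NaCl, 4, 19 and 1 members were detected in OE and 2, 42 and 2 in TNG67. Only 26 members were detected on no untreated array, so "only under salt" is literally true of these alone. The other 70 were detected on 1 untreated array, which for 61 of them was a replicate 2 array on slide 3. All 3 OE arrays with NaCl detected 86 members, and all 3 TNG67 arrays with NaCl detected 57.

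**Figure D1:**
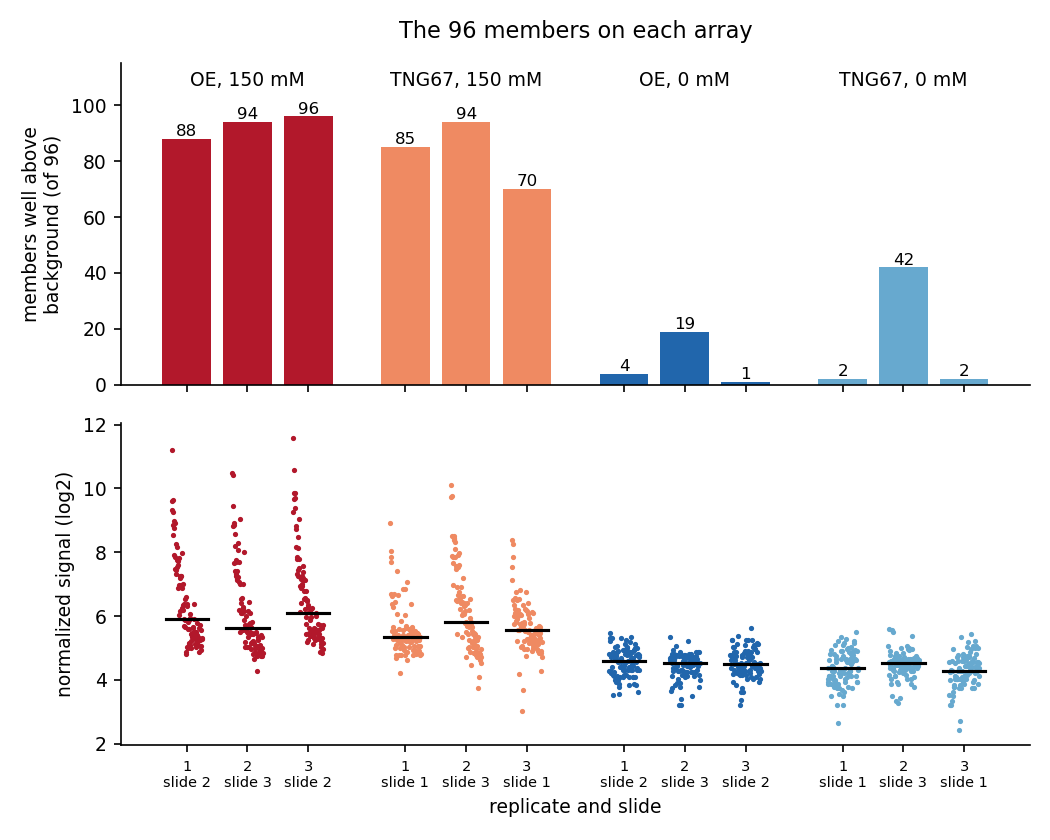
Members detected on each array (bars, of 96) and the log2 normalized signal of each member on each array (points, with the median as a black line), by genotype, NaCl level, replicate and slide. Between 70 and 96 members were detected on the arrays with NaCl and between 1 and 42 without, the highest untreated counts being the 2 replicate 2 arrays.

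Most members were dim even with NaCl. Signals are given as log2 of the normalized intensity, on which a difference of 1 is a factor of 2. The mean over the 6 arrays with NaCl had a median of 5.68 over the members and ran between 5.01 and 10.11, against a median of 4.48 without NaCl. The median of all 37144 tested probes with NaCl was 9.37, and just 1 member lay in their upper 50%. The mean with NaCl was over 6 for 38 members and over 7 for 15. The median member signal was 5.89, 5.61 and 6.10 on the OE arrays with NaCl and 5.34, 5.81 and 5.56 on those of TNG67, against 4.60, 4.53 and 4.48 in untreated OE and 4.36, 4.52 and 4.28 in untreated TNG67. How many probes qualify therefore depends strongly on the detection limit: with detection set at the 95th percentile of the negative control spots, 38 probes met the rule and 9 of them were among the 96. Leaving out 1 array and still allowing 1 missed array with NaCl and 1 detection without, 224 probes qualified without OE Control replicate 2 and 244 without TNG67 Control replicate 2, and 157 and 172 without TNG67 Salt replicates 1 and 3.

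The edge of the rule was not sharp. The 31 members just inside it, detected on 5 arrays with NaCl and 1 without, had a median difference of 0.84 (log2) between the treated and untreated means. Just outside, 50 probes detected on 4 arrays with NaCl and 1 without had a median difference of 0.53, 67 probes detected on 5 and 2 had 0.56, and 88 probes detected on 6 and 2 had 1.38, above that of the members at the edge. At the strict end, 8 members were detected on all 6 arrays with NaCl and on none without.

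**Figure D2:**
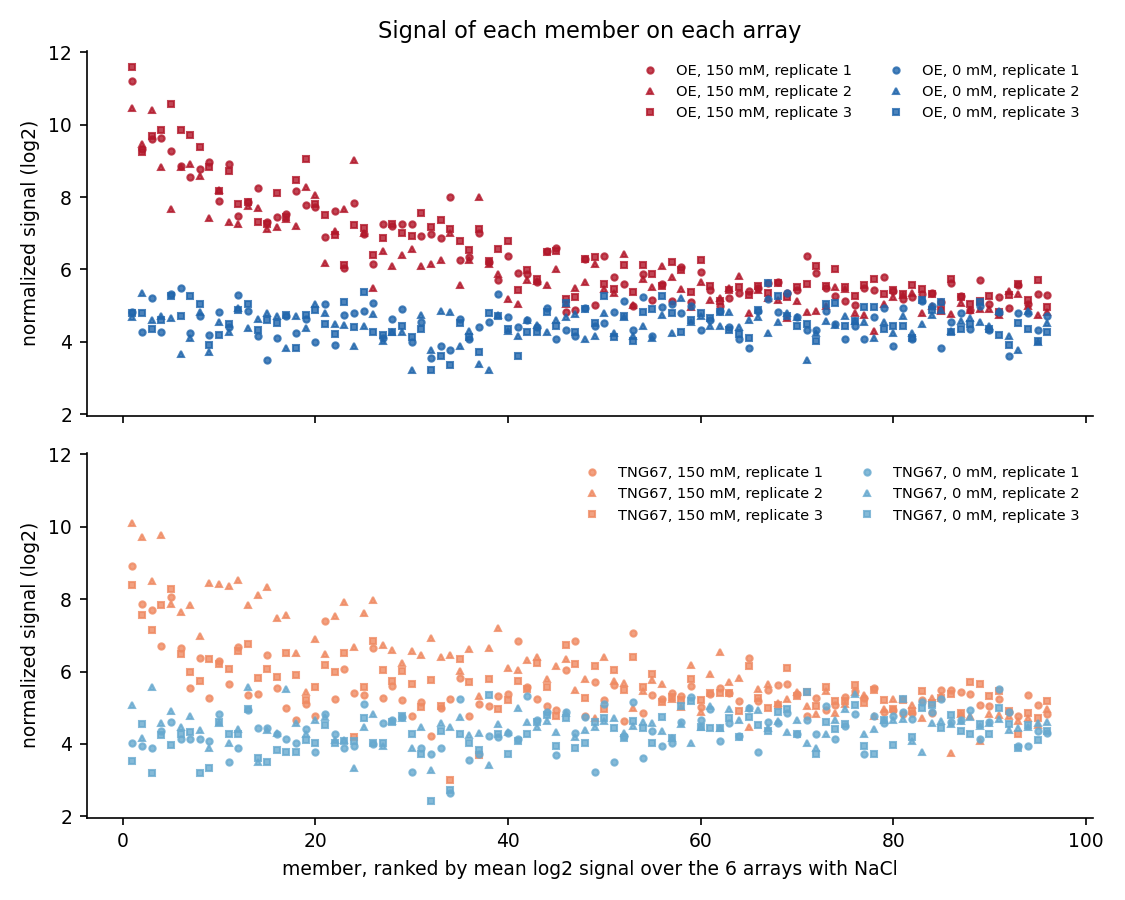
Log2 normalized signal of each of the 96 members on each array, OE above and TNG67 below, with members ranked along the x axis by their mean over the 6 arrays with NaCl. Untreated signals lay between 2.42 and 5.63. In TNG67 with NaCl the replicate 2 array (triangles) lay above replicates 1 and 3 for 19 of the 20 highest members. It did so for 58 of the 96 members and 39.8% of all tested probes. The ranking mean includes this array, which favours a high replicate 2 among the highest members.

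The brightest member was CUST_17648, a probe with no locus in the tables used here (probe names are given without their shared ending). It read 11.20, 10.47 and 11.58 in OE with NaCl and 8.91, 10.10 and 8.40 in TNG67 with NaCl, against 4.82, 4.68 and 4.79 in untreated OE and 4.03, 5.07 and 3.53 in untreated TNG67. Every treated array stood above every untreated one by a wide margin. Because no untreated OE array detected it, its rise in OE is given as an approximate bound, 80.0-fold. That bound sets the treated mean against the mean, over the untreated arrays, of the higher of the probe's own signal and the dimmest detected probe on that array. All bounds below were made in this way. The dimmest detected probe is not each probe's own limit, since undetected signals can lie above it. On the untreated OE arrays it read 4.37, 3.99 and 4.44, below CUST_17648 on each. The bound of CUST_17648 is therefore its measured fold, and bounds are not strict minimums.

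Other bright members showed the same step from background. CUST_34742 (LOC_Os04g43170) read 9.61, 10.41 and 9.68 in OE with NaCl and 5.22, 4.61 and 4.36 in untreated OE, a bound of 35.2-fold. CUST_41424 read 9.64, 8.83 and 9.85 in OE with NaCl and 4.28, 4.72 and 4.61 in untreated OE, a bound of 29.3-fold. In TNG67 the largest bound, 17.9-fold, belonged to CUST_38083 (LOC_Os01g20030), which read 7.86, 9.72 and 7.55 with NaCl and 3.93, 4.16 and 4.56 without. The other 2 of the 3 largest bounds in TNG67 were 8.39-fold for CUST_28758 and 6.70-fold for CUST_22365. At the other end, the smallest bounds were 1.24-fold in OE (CUST_39891) and 1.09-fold in TNG67 (CUST_37018), hardly above background.

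Over the set, 72 members were detected on no untreated OE array, and their bounds in OE had a median of 2.45-fold, with 48 at 2-fold or more, 26 at 4-fold or more and 14 at 8-fold or more. In TNG67 the 50 members detected on no untreated TNG67 array had a median bound of 2.21-fold, with 28 at 2-fold or more, 10 at 4-fold or more and 2 at 8-fold or more. These 2 sets of members differ, so their medians are not set against each other. The 8 members of the strict end had bounds of 2.41-fold to 17.6-fold in OE and 1.88-fold to 6.26-fold in TNG67. CUST_32032 had the highest of these in OE, and CUST_23956 (LOC_Os04g56309) in TNG67. CUST_27512 (LOC_Os01g21144) and CUST_17702 (LOC_Os04g32320) also belonged to the 8.

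As a description of the chosen contrast, 61 members passed limma's test (Benjamini-Hochberg adjusted p under 0.05 and over 2-fold) as higher with NaCl in OE, where 6.18% of all tested probes did, and 51 in TNG67, where 4.96% did. Both genotypes passed for 43 members, OE alone for 18, TNG67 alone for 8 and neither for 27. In both genotypes together 3.46% of tested probes passed as higher, and these 43 members made up 3.34% of them. The log2 difference between 150 and 0 mM had a median of 1.32 in OE, between 0.14 and 6.32, and of 1.20 in TNG67, between 0.12 and 4.92, where the medians of all tested probes were -0.06 and -0.02. All 6 treated arrays lay above all 6 untreated ones for 54 members, and for 8.66% of all tested probes. For the rest, at least 1 untreated array read as high as a treated one.

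**Figure D3:**
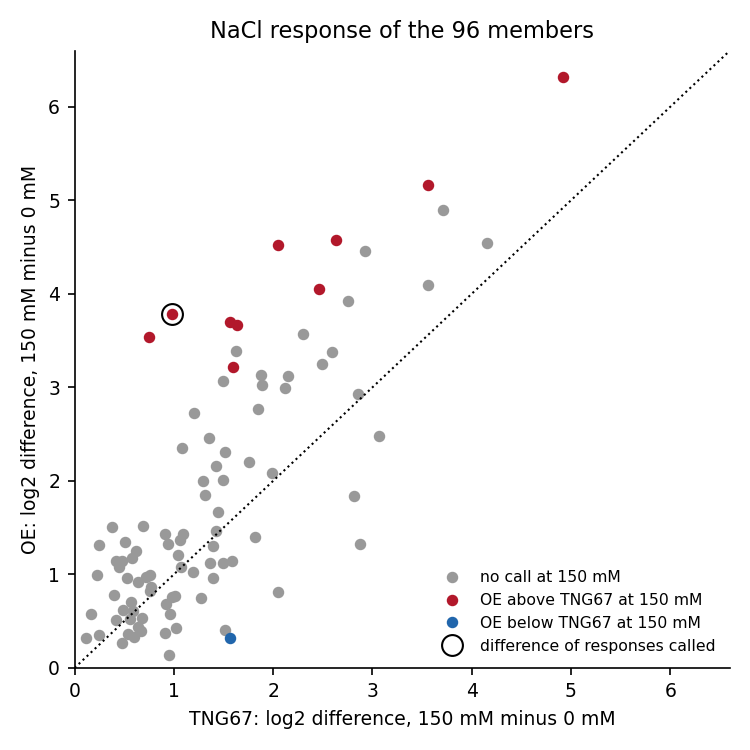
Log2 difference between 150 and 0 mM NaCl of each of the 96 members in OE (y axis) and TNG67 (x axis), with the dotted line marking equal responses and colours marking the call between OE and TNG67 at 150 mM. All 96 lay above 0 on both axes, which the choice of members fixes, and the circled member, CUST_40494, was at 3.79 in OE and 0.98 in TNG67.

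The rule took both genotypes together, so it did not use the difference between OE and TNG67, although needing 5 of 6 treated arrays keeps out any gene that just 1 genotype expresses. With 150 mM NaCl, 10 members were higher and 1 was lower in OE than in TNG67 by limma's test, where 1.93% and 1.42% of all tested probes were (3.35% in all). The median log2 difference was 0.38 over the members and -0.02 over all tested probes, and 75 members (78.1%) lay above 0, against 48.4% of tested probes. The 10 higher members differed by 1.95 to 3.12 on the log2 scale, and all 3 OE arrays lay above all 3 TNG67 arrays for each of them. The same arrays made the calls, and the share of all tested probes without overlap is not given, so this is only a description. The count rests on single arrays: without TNG67 Salt replicate 2 it was 34, without TNG67 Salt replicate 1 or 3 it was 4, without OE Salt replicate 1 it was 6 and without OE Salt replicate 3 it was 5. The higher and lower counts also changed with the treatment of the slide: with slide as a fixed block 2 were higher and 2 lower, and with slide as a random block 4 were higher and 3 lower. With slide as a fixed block, the average level of OE against TNG67 comes from slide 3 alone, with 1 array per group. Only the difference of responses then draws on all slides. With replicates 1 and 3 averaged, 1 was higher and 0 were lower. Shares over all tested probes are not given for these alternative fits. The shifts in the count and in the balance of directions are therefore not read as particular to the members.

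Replicate 2, the pair that shared a slide, gave a different picture for most members. The median difference between OE and TNG67 at 150 mM was -0.15 in replicate 2, with 40 members above 0, and 0.57 in replicates 1 and 3, with 75 above 0. Of the 96, 42 were higher in OE in replicates 1 and 3 but lower in replicate 2, 33 were higher in both and 14 lower in both. The arrays with NaCl of both genotypes moved, in opposite directions. Replicate 2 less the mean of replicates 1 and 3 had a median over the members of -0.29 in OE and 0.43 in TNG67, against -0.04 over all tested probes in each. In OE, replicate 2 lay over 1 log2 unit below the others for 11 members and above them for 2. In TNG67 it lay over 1 log2 unit above for 34 members, where 7.72% of tested probes did so, and below for 6. The 20 members brightest with NaCl were ranked on these same arrays, and no share over other bright probes is given beside them. Among these 20, OE was above TNG67 in replicates 1 and 3 for all 20 and below it in replicate 2 for 12. For CUST_23956 (LOC_Os04g56309), for example, OE read 8.90, 7.31 and 8.72 with NaCl and TNG67 5.64, 8.37 and 6.08. The part of the slide in these differences was not tested, since slide 3 holds 1 array per group.

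**Figure D4:**
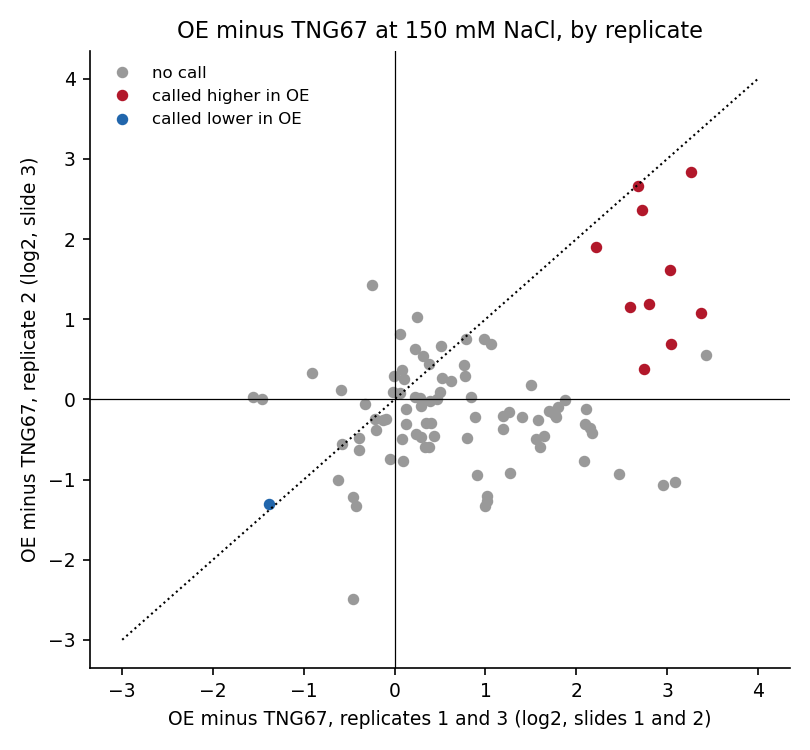
Difference between OE and TNG67 at 150 mM NaCl (log2) for each of the 96 members in replicate 2 (y axis, slide 3) and in replicates 1 and 3 (x axis, slides 2 and 1), with the dotted line marking equal differences and colours marking the calls. The 11 called members, whose groups did not overlap, have 1 sign on both axes by that choice, and 42 members lay to the right of 0 and below it.

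For the 11 called members the median size of the difference was 1.31 in replicate 2 and 2.74 in replicates 1 and 3. Replicate 2 was part of the fit that made the calls and their groups did not overlap, so a shared sign is no separate evidence. The clearest was CUST_40494, which has no locus here. It read 7.77, 8.28 and 9.06 in OE with NaCl and 5.10, 5.44 and 5.20 in TNG67 with NaCl, against 4.63, 4.38 and 4.74 in untreated OE and 4.40, 4.28 and 4.12 in untreated TNG67. Only OE with NaCl stood far from background, and 2 of the 3 TNG67 arrays with NaCl still detected the probe. The difference between OE and TNG67 at 150 mM was 3.12 ± 0.27 (log2, SE, n = 3 arrays each, limma adjusted p = 0.000164), and it was 2.84 in replicate 2 and 3.26 in replicates 1 and 3. The bound on the rise with NaCl was 13.8-fold in OE and 1.90-fold in TNG67. The response of OE exceeded that of TNG67 by 2.81 ± 0.38 (log2, SE, limma adjusted p = 0.0283), and CUST_40494 was the 1 member of 96 with such a call, which 0.0942% of tested probes had. That call was lost when any of 9 of the 12 arrays was left out, with adjusted p up to 0.105.

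CUST_27299, also without a locus, came close to this pattern. It read 7.02, 7.99 and 7.12 in OE with NaCl and 5.10, 5.33 and 3.68 in TNG67 with NaCl, and OE was higher by 2.67 ± 0.43 (log2, SE, limma adjusted p = 0.00621). Untreated arrays read 4.40, 3.40 and 3.73 in OE and 3.73, 4.31 and 3.83 in TNG67. The mean of TNG67 with NaCl lay little above these, though 2 of its 3 arrays detected the probe. The difference between the responses was 2.79, which missed the threshold (limma adjusted p = 0.183). Within replicate 2 OE was higher by 2.66.

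CUST_29293 (LOC_Os01g53650) rose in both genotypes and further in OE. OE read 8.77, 8.59 and 9.39 with NaCl and TNG67 6.37, 6.98 and 5.73, so the groups did not overlap, and the difference was 2.56 ± 0.36 (log2, SE, limma adjusted p = 0.0032). Untreated OE read 4.72, 4.82 and 5.04 and untreated TNG67 4.13, 4.38 and 3.20. Both CUST_40494 and CUST_29293 also passed with the slide fitted as a fixed block, where the other 9 called members did not. That fit takes the average genotype level from slide 3 alone, so it is no separate support.

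The remaining higher members with a locus were LOC_Os04g12960, LOC_Os01g28970 and LOC_Os04g43170. LOC_Os04g12960 (CUST_33103) read 7.83, 9.03 and 7.22 in OE with NaCl and 5.41, 6.67 and 4.19 in TNG67 with NaCl, a difference of 2.60 ± 0.59 (log2, SE, limma adjusted p = 0.0273). LOC_Os01g28970 (CUST_29918) read 7.72, 8.06 and 7.80 in OE with NaCl and 4.78, 6.91 and 5.56 in TNG67 with NaCl, a difference of 2.11 ± 0.47 (limma adjusted p = 0.0257). The TNG67 arrays spread far more than the OE arrays for the second gene. LOC_Os04g43170 (CUST_34742) read 7.70, 8.51 and 7.14 in TNG67 with NaCl, below the OE values given above by 2.11 ± 0.55 (limma adjusted p = 0.0463), the weakest of the calls.

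The other higher members, all without a locus, were CUST_16807, CUST_25035, CUST_34184 and CUST_17648. CUST_16807 read 8.86, 8.84 and 9.87 in OE with NaCl and 6.64, 7.65 and 6.49 in TNG67 with NaCl (difference 2.26, limma adjusted p = 0.0168). CUST_25035 read 8.55, 8.92 and 9.72 in OE with NaCl and 5.53, 7.84 and 5.99 in TNG67 with NaCl (difference 2.61, limma adjusted p = 0.0196). In each of these pairs of groups the TNG67 replicate 2 array was the one nearest to OE. CUST_34184 read 8.18, 7.21 and 8.47 in OE with NaCl and 4.67, 6.51 and 5.89 in TNG67 with NaCl (difference 2.26, limma adjusted p = 0.0182). CUST_17648, the brightest member, differed by 1.95 (limma adjusted p = 0.0343), but by 0.38 in replicate 2 alone.

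The lower member was CUST_39891, a dim probe. It read 4.82, 5.04 and 5.18 in OE with NaCl and 6.04, 6.35 and 6.74 in TNG67 with NaCl, against 4.32, 4.68 and 5.08 in untreated OE and 4.89, 4.85 and 4.70 in untreated TNG67. TNG67 with NaCl thus stood alone above the other groups, and OE was lower by 1.36 ± 0.22 (log2 difference -1.36, SE, limma adjusted p = 0.00603). The difference was -1.31 in replicate 2 and -1.39 in replicates 1 and 3. With a normexp offset of 50 it was -0.71, under the fold threshold, and no member was called lower. With slide as a fixed block, where the average genotype level comes from slide 3 alone, the adjusted p was 0.0573 in limma.

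**Figure D5:**
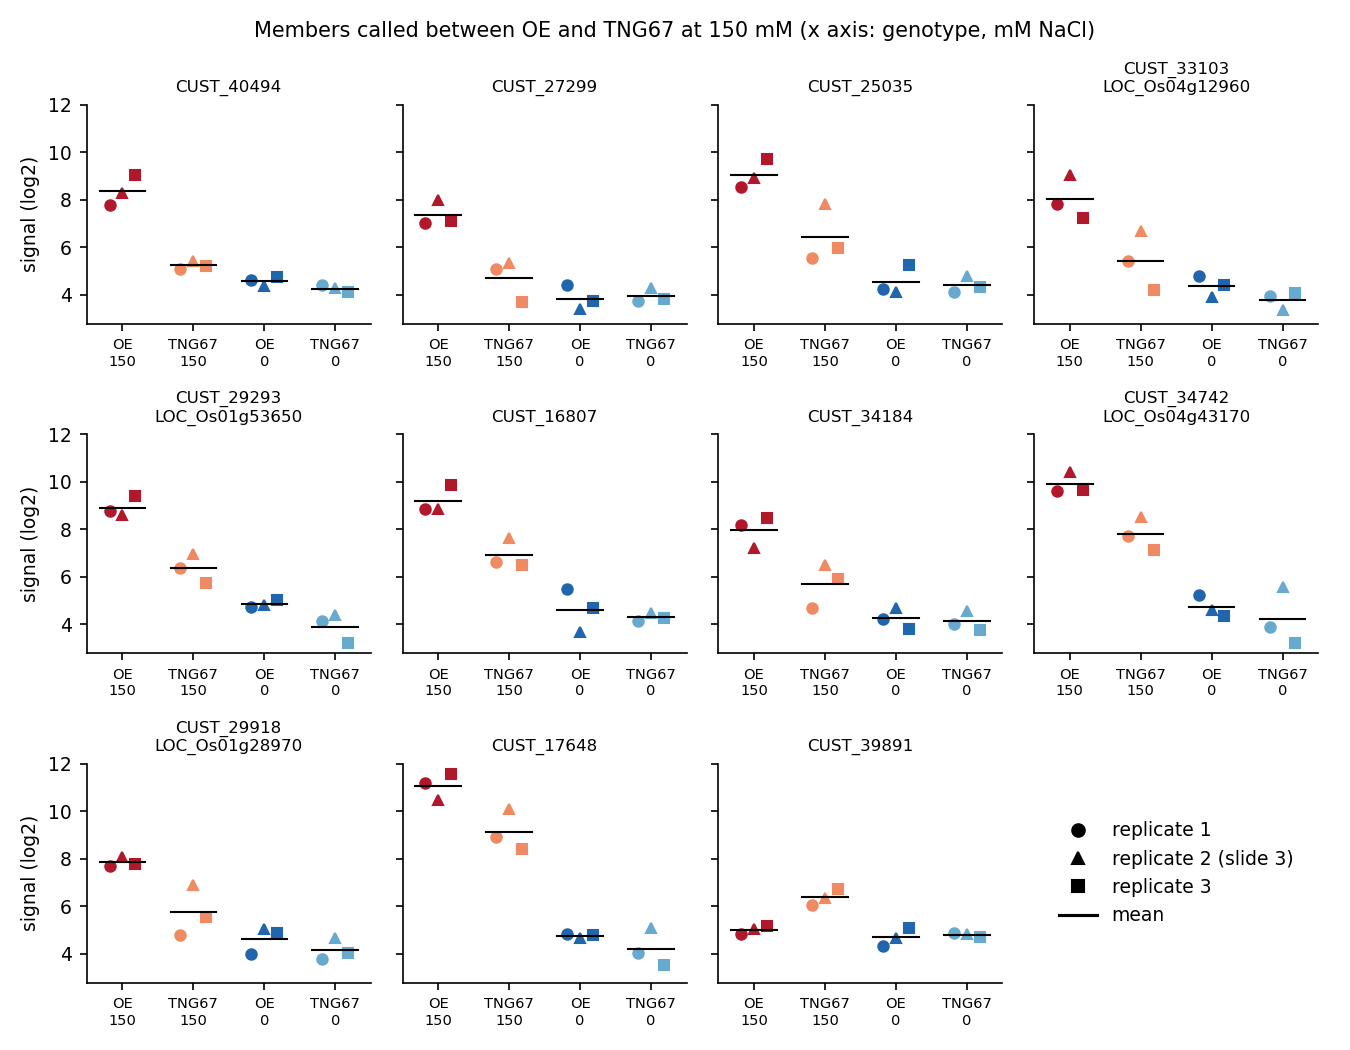
Log2 normalized signal on each array of the 11 members called between OE and TNG67 at 150 mM NaCl, in order of their difference, with the mean of each group as a line and the replicate as the symbol. OE with NaCl lies above TNG67 with NaCl on all arrays of the first 10 and below it for CUST_39891, and the untreated groups lie near background throughout.

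Without NaCl, no member was called between OE and TNG67 by limma, where 4.36% of all tested probes were, and 4 of the 96 had an unadjusted p under 0.05, where 25.2% of all tested probes did. The fitted differences ran between -0.73 and 0.96 with a median of 0.14. On 4 of the 6 untreated arrays at most 4 members were above background, so the count says little about their levels in untreated shoots. CUST_7566 (LOC_Os03g19980) passed the p threshold there but not the fold (difference -0.71, limma adjusted p = 0.0417), with 3.62, 4.16 and 3.92 in untreated OE and 4.89, 4.38 and 4.56 in untreated TNG67, none of them detected.

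Of the 96 members, 20 (20.8%) had a locus, against 4.36% of all tested probes. The loci come from the study's own lists of genes that differed between OE and TNG67 on these arrays, so the named members were picked for genotype differences and no count over them is independent of that. The list held with probe names covers loci of chromosomes 1 to 4, which gave 19 of the loci, and CUST_12103 was placed on LOC_Os06g40580 by its fold change. That locus is on the study's list of genes changed both with and without NaCl. Here the probe was called in neither (limma adjusted p = 0.112 at 150 mM and 0.721 at 0 mM). Whether the placement or the processing makes the difference was not tested. Besides the loci named above, they were LOC_Os01g19770, LOC_Os01g50110, LOC_Os01g40950, LOC_Os01g10370, LOC_Os01g12430, LOC_Os02g56500, LOC_Os02g03900, LOC_Os03g59460, LOC_Os03g16334 and LOC_Os04g30010. The sources used here give none of them a product, so no function is stated.

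Among these, some stood clearly above the untreated arrays in OE with NaCl. LOC_Os01g50110 (CUST_13352) read 7.85, 7.76 and 7.85 in OE with NaCl and 5.35, 7.85 and 6.77 in TNG67 with NaCl. Untreated TNG67 read 4.93, 5.58 and 4.96, so TNG67 replicate 1 with NaCl lay below an untreated array. LOC_Os01g19770 (CUST_18624) read 7.90, 8.19 and 8.17 in OE with NaCl and 6.28, 8.41 and 6.22 in TNG67 with NaCl. For both, the OE arrays were close together and the TNG67 replicate 2 array matched or passed them. LOC_Os06g40580 (CUST_12103) read 7.45, 7.17 and 8.12 in OE with NaCl and 5.53, 7.47 and 5.85 in TNG67 with NaCl. None of these 3 passed limma's test between OE and TNG67 (adjusted p = 0.186, 0.191 and 0.112). All 3 did without TNG67 Salt replicate 2, with differences of 1.76, 1.83 and 1.89. That array is the only TNG67 array with NaCl on a slide shared with OE. Within replicate 2 the differences were -0.09, -0.22 and -0.31. Without it, slide and genotype cannot be told apart, so these passes are no support for a difference.

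LOC_Os01g40950 (CUST_35454) and LOC_Os02g03900 (CUST_34363) were the 2 members with a locus whose mean was lower in OE with NaCl. LOC_Os01g40950 read 6.16, 5.50 and 6.41 in OE and 6.65, 7.99 and 6.83 in TNG67, so the groups did not overlap, but the difference of -1.13 missed the threshold (limma adjusted p = 0.113). It passed with slide as a fixed block (-2.05, limma adjusted p = 0.0171) or a random block (-1.69, limma adjusted p = 0.0223). The fixed block takes the average genotype level from slide 3 alone, with 1 array per group. LOC_Os02g03900 read 4.87, 5.50 and 5.25 in OE and 6.85, 5.49 and 6.20 in TNG67, where replicate 2 overlapped (difference -0.97, limma adjusted p = 0.0957). Without TNG67 Salt replicate 2 its difference was -1.32 and passed (limma adjusted p = 0.0115). LOC_Os01g10370 (CUST_37740) had the widest spread, at 7.99, 7.00 and 7.12 in OE and 5.25, 6.45 and 3.01 in TNG67, and its difference of 2.47 also missed the threshold (limma adjusted p = 0.0927). It passed with the replicate number as a block (2.47, limma adjusted p = 0.0327), with a normexp offset of 50 (1.30, limma adjusted p = 0.0256) and without TNG67 Salt replicate 2 (3.24, limma adjusted p = 0.019). For LOC_Os02g03900 and LOC_Os01g10370, leaving out that array left no TNG67 array with NaCl on a slide shared with OE. Those 2 passes are therefore no support for a difference.

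The 60 members not named here had means with NaCl between 5.01 and 7.10 (median 5.47) and differences between OE and TNG67 at 150 mM between -1.03 and 1.36, none of them called. Of a list of 36 well-known salt and ABA genes, 10 had a probe through the study's lists, and none of these 10 was a member. Only 0.226% of all probes were members, so this absence says little. Whether the other 26 are among the 76 members without a locus could not be looked up. All 10 passed as higher with NaCl in both genotypes, where 3.46% of all tested probes did. They were listed as known salt and ABA genes, so that count is only a description. Each was detected on 3 or more untreated arrays. *OsABI5*, which encodes a bZIP transcription factor of ABA signalling, was detected on 6 arrays with NaCl and 5 without, and its mean signal was 10.06 in OE and 7.23 in TNG67 with NaCl, against 7.32 and 5.35 in untreated OE and TNG67. *OsHOX24*, which encodes a homeodomain-leucine zipper protein, was also detected on 6 and 5, at 12.58 in OE and 11.10 in TNG67 with NaCl, against 7.07 and 5.13 in untreated OE and TNG67. *OsHOX24* thus responded as strongly as the brightest members. It did not meet the rule because it was detected on 5 untreated arrays, with a mean there of 7.07 in OE but 5.13 in TNG67.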

How the data were processed

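Total RNA of the shoots was labelled with Cy3 and hybridized to Agilent 4 x 44 K rice arrays, and the authors deposited each array's scanner output from Agilent Feature Extraction 10.7.1.1, with spot signal and background intensity and well-above-background flags. The deposited normalized log2 values, processed signals less a constant per array and each probe's median, served as an alternative. Here, median signals were corrected with limma's normexp (offset 0), 1417 control spots per array left out, outlier spots set to missing, arrays quantile-normalized and spots averaged by probe. The 37144 probes detected on at least 3 arrays were tested with limma 3.58.1 (lmFit, eBayes, 1 mean per group), with Benjamini-Hochberg adjustment over all of them. Calls needed an adjusted p under 0.05 and over 2-fold. The number of arrays limits the precision. The fit was tested on simulated data with independent arrays and no slide effect, so that test does not bear on the slides.

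Members and gene lists were chosen with earlier results of these data known. Named members were those with a locus, the 10 brightest with NaCl, the 5 clearest calls in each direction and the 3 largest and 3 smallest bounds per genotype. The study's gene lists gave 1182 probes a locus directly and 459 by fold change, which found the listed probe for 431 loci, another for 7 and none or several for 14. Groups share replicate numbers. Deviations of same-numbered arrays correlated at 0.172 to 0.681, over 0.1 for every pair, but the fit given has no replicate block and the blocked fit is an alternative. Slide 3 holds every replicate 2, so number and slide cannot be told apart there. Probe sequences and promoters were not used here.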

Additional observations from a re-analysis of the deposited data

Results flagged for a closer look

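CUST_40494 responded to NaCl more in OE than in TNG67, by 2.81 on the log2 scale in the test of that difference itself (limma adjusted p = 0.0283), and it was higher with NaCl on 3 of 3 OE arrays than on any TNG67 array. The difference between the responses was 2.75 in replicate 2 alone. Leaving out 1 array at a time gave 2.46 to 3.11 with adjusted p between 0.0153 and 0.105, past the threshold without TNG67 Salt replicate 2 (0.0269), OE Salt replicate 1 (0.0153) or OE Salt replicate 3 (0.0257) and beyond it without any of the other 9 arrays.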

How the results depend on the processing

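The 11 members called between OE and TNG67 at 150 mM kept their direction under every alternative in which they were tested. Their groups did not overlap, so leaving out an array, averaging, a replicate block or the t-test could not reverse a sign. The kept direction is therefore no separate support. Their number was 7 with processed signals scaled to each array's 75th percentile, where 3.8% of tested probes were called. It was also 7 with the authors' normalized values, where 3.78% were called. With each, the median difference over the 96 was 0.80 and 0 members were called in the difference of responses. At 0 mM each called 2 members, where 5.1% and 5.12% of tested probes were called. The number at 150 mM was 4 (2 higher, 2 lower) with slide as a fixed block, which kept 2 of the 11. It was 7 (4 higher, 3 lower) with slide as a random block, which kept 5 and called 3 in the difference of responses. With the replicate number as a block it was 12, all 11 and CUST_37740, and the counts were again 0 at 0 mM, 1 for the difference of responses, 61 for NaCl in OE and 51 for NaCl in TNG67. Averaging replicates 1 and 3 left 1 (CUST_40494), with 0 for the difference of responses, 25 for NaCl in OE and 11 for NaCl in TNG67. The methods' t-test with Benjamini-Hochberg adjustment called 0 at 150 mM and 6 for NaCl in TNG67, and was not run for the difference of responses. A normexp offset of 50 called 33 for NaCl in OE and 14 for NaCl in TNG67, where 7.57% and 6.93% of tested probes were called. At 150 mM that offset called 11 members higher and 0 lower, without CUST_39891 (-0.71) and with CUST_37740, where 2.53% of tested probes were called. Shares over all tested probes are not given for the block, averaged, t-test and left-out-array fits. Testing only probes detected on at least 6 arrays dropped CUST_40494 and left 0 for the difference of responses. Stricter detection (6 and 0 arrays) gave 8 members, looser detection (at least 4 and at most 2) 478, slide 3 alone 253 and the negative-control limit 38.

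Leaving out 1 array at a time gave 4 to 34 members called at 150 mM, 0 to 0 at 0 mM, 0 to 2 for the difference of responses, 53 to 62 for NaCl in OE, 35 to 53 for NaCl in TNG67, a median difference at 150 mM of 0.33 to 0.50, and 98 to 244 qualifying probes. The 2 alternatives chosen after seeing the data split the replicates: the median difference was 0.57 in replicates 1 and 3 and turned to -0.15 in replicate 2.

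None of the members whose difference at 150 mM changed sign had been called. CUST_28758 turned to -0.67, -0.30 and -0.13 and CUST_853 to -0.39, -0.18 and -0.012 with slide as a fixed block, as a random block and with replicates 1 and 3 averaged, and CUST_35604 to -0.012 with the fixed block. CUST_37018 turned to 0.50 with the shifted and 0.50 with the authors' values, and to 0.16 and 0.0018 with the fixed and random block. With 1 array left out, the difference ran between -0.0904 and 0.88 for CUST_28758, -0.76 and 0.31 for CUST_22365, -0.15 and 0.46 for CUST_853 and -0.12 and 0.67 for CUST_38306. The cause of these changes was not tested. Signals near background limit most members, and with 3 arrays per group small differences were not detectable.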
